A study of Homo sapiens with 12 samples.

Results

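The genes described here encode subunits of NF-kB, inhibitors that hold it back and targets through which it limits its own activity. The 10 genes were selected by name, as NFKB1, NFKB2, RELA, RELB, NFKBIA, NFKBIE, NFKBIZ, TNFAIP3, CFLAR and BIRC3. Every probe set that the platform annotation assigns to 1 of them and to no other gene was taken. Of the 54675 probe sets on the Affymetrix arrays, 28 were found for 9 of the 10 genes. No probe set carried BIRC3 as its only symbol, so that gene was not analysed. HCT116 is a cell line from a human colorectal cancer that carries an oncogenic RAS allele, and Hke3 and Hkh-2 are isogenic lines in which that allele was altered by homologous recombination. The 12 arrays analysed formed 4 groups of 3, namely HCT116 control cells given 25 ng/ml doxycycline, HCT116 control cells given vehicle, both collected on day 3, Hke3 cells and Hkh-2 cells. The methods describe vehicle and doxycycline for HCT116 cells that carry an inducible knockdown vector, with a control version for comparison. The labels of the control arrays name no vector, and they carry a further number of unstated meaning that the recombined lines lack. The recombined lines were kept in basal condition, so culture, vector and genotype cannot be told apart in a comparison with the control cells. Whether the control arrays are those of the parental line is not settled by the labels. According to the methods the recombined lines lack the mutant allele through a deletion, whereas a supplementary description speaks of replacement with a wild-type allele. Hke3 and Hkh-2 are each 1 clone, so a difference between HCT116 and 1 line may belong to that clone. Nothing in the labels tells whether the 3 arrays of a group stem from separate cultures, and p-values thus reflect only how far these arrays spread, possibly for technical reasons.

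NF-kB is a family of dimeric transcription factors. In resting cells the dimers are bound by IkB proteins in the cytoplasm, and receptors for cytokines or microbial products activate IKK kinases that mark IkB for degradation, which frees the dimers to enter the nucleus. A second, non-canonical route runs through the kinase NIK and the processing of the NFKB2 precursor, which pairs with RELB. Several of the genes that NF-kB switches on are its own inhibitors, so that the response is damped, and others protect the cell from death by cytokines. In the intestinal epithelium the pathway is known for its part in inflammation and in the survival of epithelial cells.

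RefSeq promoter windows (GRCh38.p14, 250 bases before and 50 bases after a transcript start) were matched for 8 of the 10 genes, with RELB and NFKBIE missing from the table. The NF-kB consensus, a 10-letter motif read on both strands, lay in at least 1 window of 7 of these 8 genes, RELA being the exception, compared with 13.3% of 27305 genes overall. By window, 9 of 16 windows of these genes held it, beside 11.3% of 35116 windows of the same length. The match is a description of these letters and not evidence of binding. The 250 bases before the start are printed here for CFLAR, NFKBIZ and TNFAIP3, the 3 genes with lower values in HCT116 than in either line, and for NFKB1, the gene with the largest change in the other direction against Hke3, with the consensus in capitals. The CFLAR window (chr2:201118466-201118715, plus strand) and the TNFAIP3 window (chr6:137867009-137867258, plus strand) lie inside the annotated genes, upstream of a transcript that starts downstream of the first annotated base. The NFKBIZ window (chr3:101827740-101827989, plus strand) and the NFKB1 window (chr4:102501109-102501358, plus strand) end at the first base before the gene.
CFLAR: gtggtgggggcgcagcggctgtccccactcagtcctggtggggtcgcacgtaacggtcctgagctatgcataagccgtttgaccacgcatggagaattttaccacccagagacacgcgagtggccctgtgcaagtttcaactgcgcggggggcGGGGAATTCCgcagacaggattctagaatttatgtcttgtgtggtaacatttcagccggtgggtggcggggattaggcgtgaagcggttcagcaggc
NFKBIZ: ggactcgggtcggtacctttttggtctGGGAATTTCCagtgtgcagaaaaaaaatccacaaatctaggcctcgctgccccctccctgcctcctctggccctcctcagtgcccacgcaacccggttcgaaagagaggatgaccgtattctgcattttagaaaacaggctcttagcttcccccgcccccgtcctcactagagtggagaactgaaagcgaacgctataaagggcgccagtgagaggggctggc
TNFAIP3: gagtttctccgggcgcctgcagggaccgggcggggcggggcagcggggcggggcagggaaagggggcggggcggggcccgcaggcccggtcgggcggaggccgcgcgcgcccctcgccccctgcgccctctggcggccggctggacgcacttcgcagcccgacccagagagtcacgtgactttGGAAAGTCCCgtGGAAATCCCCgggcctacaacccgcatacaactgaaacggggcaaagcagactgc
NFKB1: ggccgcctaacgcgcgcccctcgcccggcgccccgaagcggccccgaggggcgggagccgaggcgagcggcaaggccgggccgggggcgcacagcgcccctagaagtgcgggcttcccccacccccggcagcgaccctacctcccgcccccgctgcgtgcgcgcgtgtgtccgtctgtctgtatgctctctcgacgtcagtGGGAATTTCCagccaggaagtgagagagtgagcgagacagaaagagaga
The CFLAR match, GGGGAATTCC, begins at position -97 from the transcript start. NFKBIZ and NFKB1 carry the same letters, GGGAATTTCC, at positions -223 and -49. In TNFAIP3 a pair of matches, at positions -67 and -55, lies on the opposite strand and reads GGAAAGTCCC and GGAAATCCCC on the strand shown. NFKB2 held the fully symmetrical form of the consensus in its second window, at position -107, a form found in 0.037% of all windows.

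Values are log2 units of RMA, a procedure that corrects background, normalizes between arrays and gives 1 value per probe set. Where a gene had several probe sets, the one with the highest mean over the arrays stands for it, and all 9 genes reached a mean of 6, below which values were taken as near background, in at least 1 group. Differences were tested with limma over 12852 genes, and a gene was called at a Benjamini-Hochberg adjusted p under 0.05. A pair of arrays, HCT116 vehicle replicate 2 and Hke3 replicate 3, departed from the rest of their own groups, their deviations being correlated across genes with r = 0.683, and several results are also given without them. The pair was picked from the values themselves, without a stated rule, so results without it are no independent check. Leaving out both arrays only added calls among these genes, for NFKB2, RELA, RELB and NFKBIA. Of 9 markers of colon epithelium, 8 had a mean of at least 6 in every group, the exception being CDH17, whereas PTPRC, CD14 and LYZ, 3 of 4 leukocyte markers with a probe set, and CDH5, of endothelium, lay under 6 throughout. The fourth leukocyte marker, CD3E, had means of 6.07 in HCT116 vehicle cells, 6.04 in Hke3 and 6.16 in Hkh-2. Of the other endothelial markers, VWF had a mean of 6.35 in HCT116 vehicle cells, 5.34 in Hke3 and 5.32 in Hkh-2, and PECAM1 was higher in HCT116 vehicle cells by 0.24 and 0.29. Of 5 fibroblast markers, COL1A1 (8.33 in HCT116 vehicle cells, 8.19 in Hke3 and 8.19 in Hkh-2) and DCN (6.15, 6.21 and 6.21 in the same order) lay above 6 in every group, and COL3A1 reached 6 in Hkh-2 alone (6.73). The mean of the epithelial markers lay between 9.85 and 9.92 on the HCT116 vehicle arrays, 9.88 and 10.07 on the Hke3 arrays and 10.40 and 10.45 on the Hkh-2 arrays, and the part of these markers in the differences of the NF-kB genes was not tested.

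Compared with Hke3, HCT116 vehicle cells had higher NFKB1 and RELB and lower CFLAR, TNFAIP3 and NFKBIZ, which are 2 higher and 3 lower of 9 genes. Of all genes tested, 24.6% were called higher and 23.2% lower, so these counts are close to the background. Compared with Hkh-2, none of the 9 genes was higher and 6 were lower in HCT116 vehicle cells (NFKB2, NFKBIA, NFKBIE, NFKBIZ, TNFAIP3 and CFLAR), where 14.3% of all genes were called higher and 21.7% lower. The median difference over the 9 genes was -0.17 against Hke3 and -0.60 against Hkh-2, beside 0.04 and -0.02 over all genes. In both comparisons together, CFLAR, NFKBIZ and TNFAIP3 were lower in HCT116 and no gene was higher, beside 12.6% of genes lower and 9.04% higher than in both lines. Both comparisons share the vehicle arrays.

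**Figure D1:**
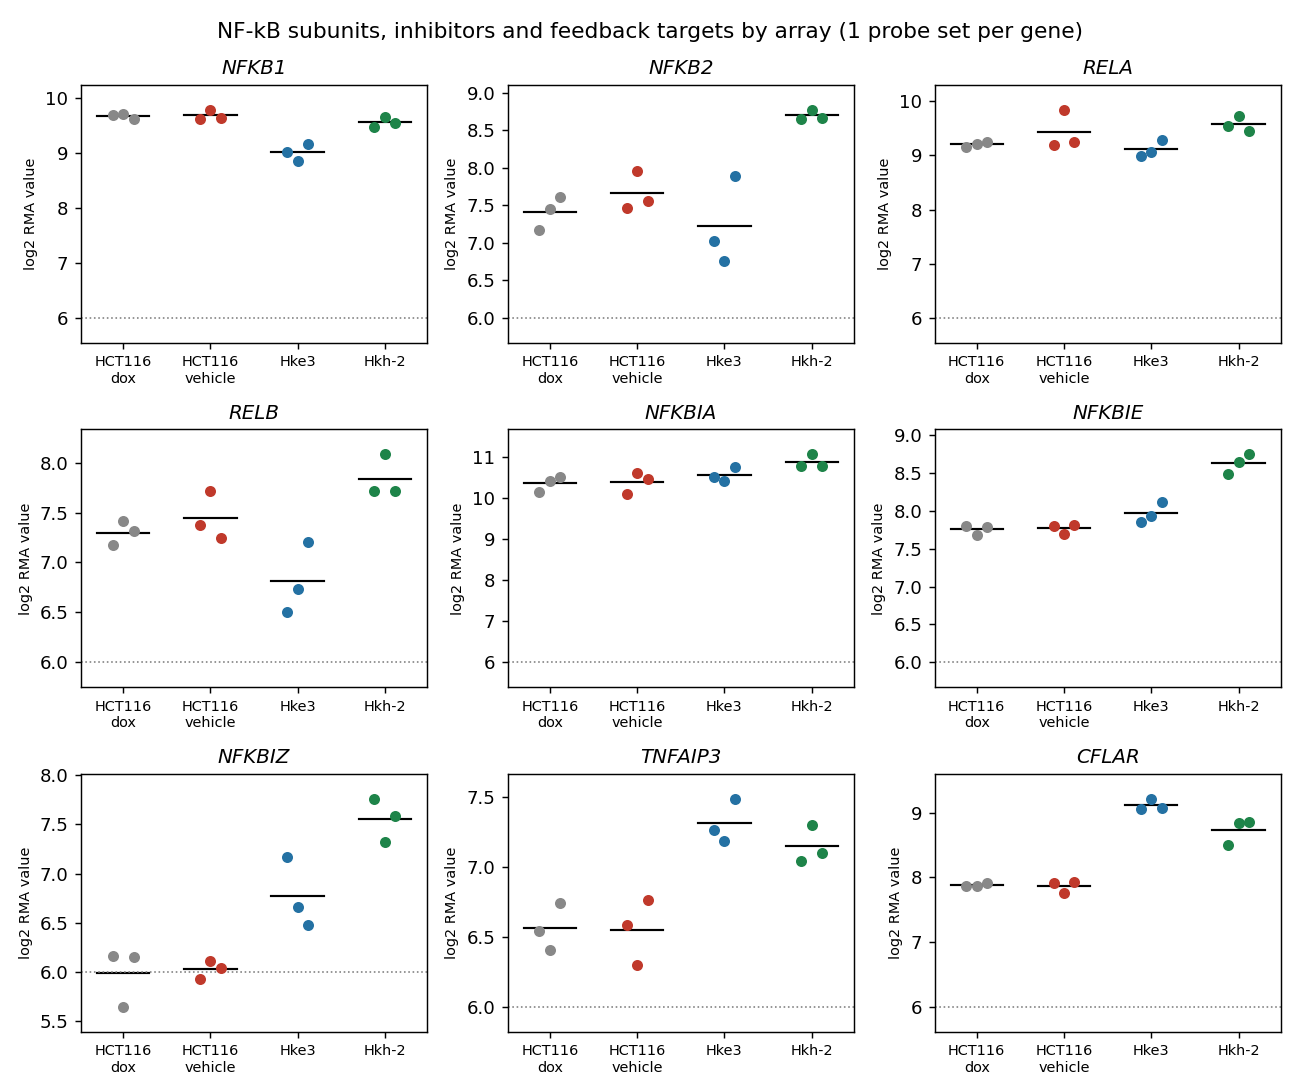
Log2 RMA value (y axis) of the 9 NF-kB genes on each of the 12 arrays (points), in HCT116 doxycycline, HCT116 vehicle, Hke3 and Hkh-2 cells (x axis), with the group mean as a bar and a dotted line at 6. CFLAR, TNFAIP3 and NFKBIZ sit lower on all 6 HCT116 arrays than on the arrays of either line, and NFKB1 is low only in Hke3.

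Among the subunits, NFKB1 (209239_at, chr4:102501359-102617302), which encodes the precursor of a DNA-binding subunit, was low in Hke3 alone. Its log2 values were 9.69, 9.71 and 9.62 in HCT116 doxycycline cells, 9.63, 9.78 and 9.64 in HCT116 vehicle cells, 9.02, 8.84 and 9.16 in Hke3, and 9.48, 9.66 and 9.54 in Hkh-2. Every HCT116 vehicle array lay above every Hke3 array, while the HCT116 vehicle and Hkh-2 arrays overlapped. HCT116 vehicle exceeded Hke3 by 0.68 ± 0.089 (SE, limma, adjusted p = 4.59e-05), a 1.60-fold difference, and the difference from Hkh-2 was 0.13 ± 0.089 (adjusted p = 0.290). RELA (201783_s_at, chr11:65653601-65663857), the transactivating subunit of the canonical dimer, had values of 9.15, 9.21 and 9.25 in doxycycline cells, 9.18, 9.84 and 9.25 in vehicle cells, 8.996, 9.05 and 9.28 in Hke3, and 9.55, 9.72 and 9.45 in Hkh-2. The vehicle arrays overlapped with both lines, vehicle replicate 2 being the highest of all 12. Neither difference passed the threshold, at 0.32 ± 0.147 against Hke3 (adjusted p = 0.0932) and -0.15 ± 0.147 against Hkh-2 (adjusted p = 0.478). Without vehicle replicate 2, RELA was lower in vehicle cells than in Hkh-2 (-0.35, adjusted p = 0.0167), and without vehicle replicate 1 or Hke3 replicate 3 it was higher than in Hke3 (0.44 and 0.40, adjusted p = 0.0360 and 0.0464).

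The non-canonical subunits NFKB2 and RELB had their highest means in Hkh-2. NFKB2 (207535_s_at, chr10:102394110-102402529) encodes the precursor that NIK signalling processes, and RELB (205205_at, chr19:45001464-45038192) its usual partner. NFKB2 values were 7.17, 7.45 and 7.62 in doxycycline cells, 7.47, 7.95 and 7.56 in vehicle cells, 7.03, 6.76 and 7.90 in Hke3, and 8.65, 8.77 and 8.67 in Hkh-2. All Hkh-2 arrays lay above all other arrays, and Hke3 replicate 3 was 1.00 above the mean of the other Hke3 arrays. HCT116 vehicle was lower than Hkh-2 (-1.04 ± 0.230, limma, adjusted p = 0.00323), a 2.05-fold difference. Against Hke3 the difference was 0.43 ± 0.230 (adjusted p = 0.140), which passed the threshold without Hke3 replicate 3 (0.76, adjusted p = 0.00115) and without both arrays that stood apart (0.62, adjusted p = 0.00190). RELB values were 7.17, 7.41 and 7.31 in doxycycline cells, 7.37, 7.72 and 7.25 in vehicle cells, 6.50, 6.73 and 7.20 in Hke3, and 7.71, 8.08 and 7.71 in Hkh-2. The vehicle arrays lay above the Hke3 arrays, and vehicle replicate 2 reached into the range of Hkh-2. RELB was higher in vehicle cells than in Hke3 by 0.63 ± 0.171 (adjusted p = 0.00852), a 1.55-fold difference. The difference from Hkh-2, -0.39 ± 0.171, did not pass (adjusted p = 0.0926), but did without vehicle replicate 2 (-0.53, adjusted p = 0.0335) and without Hke3 replicate 3, which leaves its size at -0.39 (adjusted p = 0.0323).

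The inhibitor genes were lower in HCT116 than in Hkh-2. NFKBIA (201502_s_at, chr14:35401513-35404749) encodes IkB-alpha, the NF-kB-induced inhibitor that ends the first wave of a response. Its values were 10.16, 10.43 and 10.52 in doxycycline cells, 10.11, 10.61 and 10.47 in vehicle cells, 10.51, 10.42 and 10.77 in Hke3, and 10.79, 11.07 and 10.80 in Hkh-2. The vehicle arrays overlapped with Hke3 and lay below Hkh-2. NFKBIA was lower in vehicle cells than in Hkh-2 (-0.49 ± 0.141, limma, adjusted p = 0.0158), which no longer passed without vehicle replicate 1 (-0.35, adjusted p = 0.0751) or without Hkh-2 replicate 2 (-0.39, adjusted p = 0.0743), and against Hke3 the difference was -0.17 ± 0.141 (adjusted p = 0.336). NFKBIE (203927_at, chr6:44258166-44265551) encodes IkB-epsilon, another cytoplasmic inhibitor. Its values were 7.80, 7.68 and 7.78 in doxycycline cells, 7.80, 7.69 and 7.81 in vehicle cells, 7.85, 7.93 and 8.12 in Hke3, and 8.49, 8.64 and 8.74 in Hkh-2. The groups stood in steps without overlap, apart from the HCT116 groups, which overlapped with each other. NFKBIE was lower in vehicle cells than in Hkh-2 (-0.86 ± 0.089, adjusted p = 7.15e-06), a 1.81-fold difference, and the difference from Hke3, -0.20 ± 0.089, did not pass the threshold (adjusted p = 0.0796).

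NFKBIZ (223218_s_at, chr3:101827990-101861022) encodes a nuclear IkB protein that acts as a cofactor on a subset of NF-kB targets. Its values were 6.16, 5.64 and 6.15 in doxycycline cells, 5.93, 6.11 and 6.04 in vehicle cells, 7.16, 6.66 and 6.47 in Hke3, and 7.76, 7.32 and 7.58 in Hkh-2. The HCT116 values lay around 6, near background, and every array of Hke3 stood above them and below every array of Hkh-2. NFKBIZ was lower in vehicle cells than in Hke3 (-0.74 ± 0.178, adjusted p = 0.00414) and than in Hkh-2 (-1.53 ± 0.178, adjusted p = 2.01e-05), differences of 1.67-fold and 2.89-fold (limma), which may understate the change since the HCT116 level is near background.

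TNFAIP3 and CFLAR, feedback and survival genes, were lower in HCT116 than in Hke3 and in Hkh-2. TNFAIP3 (202644_s_at, chr6:137866349-137883312) encodes a ubiquitin-editing enzyme that shuts off signalling from cytokine receptors. Its values were 6.54, 6.41 and 6.74 in doxycycline cells, 6.59, 6.30 and 6.77 in vehicle cells, 7.26, 7.19 and 7.49 in Hke3, and 7.04, 7.30 and 7.10 in Hkh-2. All 6 HCT116 arrays lay below all 6 arrays of the lines. TNFAIP3 was lower in vehicle cells than in Hke3 (-0.76 ± 0.129, limma, adjusted p = 0.000360) and Hkh-2 (-0.60 ± 0.129, adjusted p = 0.00275), or 1.70-fold and 1.51-fold. CFLAR (209939_x_at, chr2:201116164-201176687) encodes FLIP, which blocks caspase-8 at death receptors. Its values were 7.87, 7.86 and 7.92 in doxycycline cells, 7.92, 7.76 and 7.93 in vehicle cells, 9.06, 9.21 and 9.08 in Hke3, and 8.50, 8.84 and 8.85 in Hkh-2. HCT116 arrays again lay below all arrays of the lines. CFLAR was lower than in Hke3 (-1.24 ± 0.097, adjusted p = 4.28e-07) and Hkh-2 (-0.86 ± 0.097, adjusted p = 1.62e-05), or 2.37-fold and 1.81-fold. BIRC3 (chr11:102317484-102339403) encodes an inhibitor-of-apoptosis protein, and its promoter window held the consensus at positions -199 and -135. No level is given for BIRC3, since only probe sets assigned to a single gene were used.

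**Figure D2:**
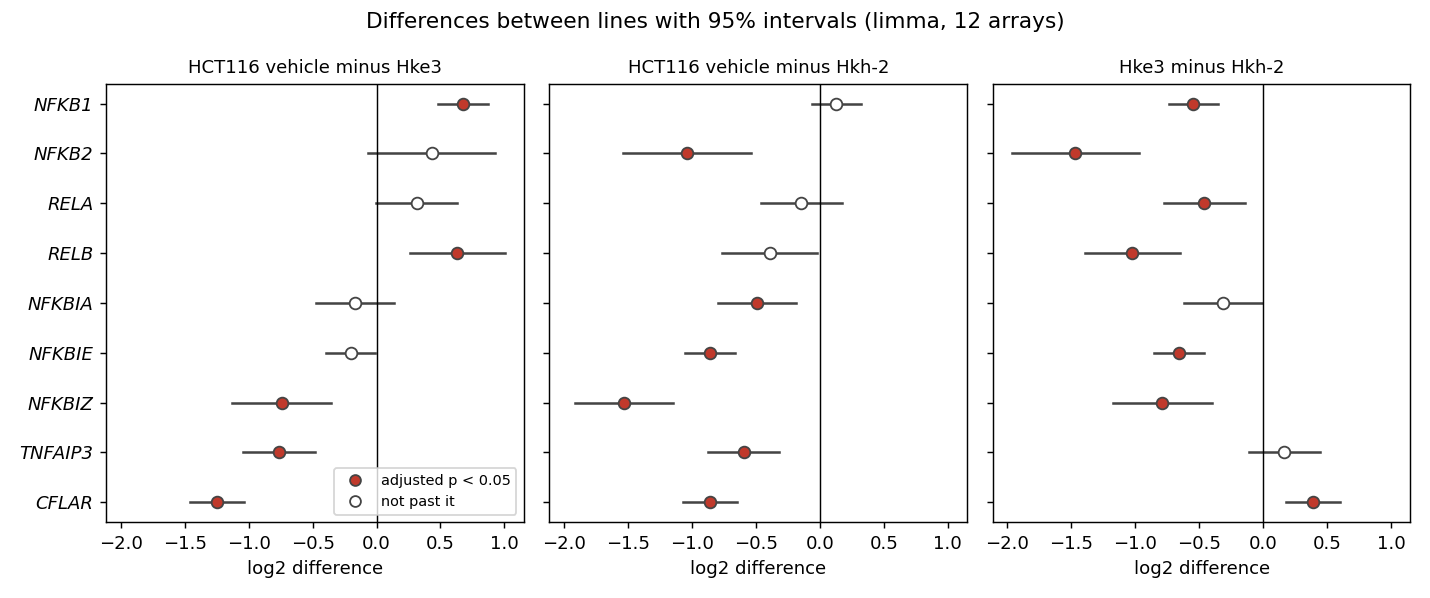
Log2 difference (x axis) with 95% confidence interval from limma for each of the 9 genes (rows) in HCT116 vehicle minus Hke3, HCT116 vehicle minus Hkh-2 and Hke3 minus Hkh-2, filled where the adjusted p is under 0.05. CFLAR, TNFAIP3 and NFKBIZ lie left of 0 in the comparisons with both lines, and 6 of 9 genes lie left of 0 and filled between Hke3 and Hkh-2.

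The lines also differed from each other. Hke3 was lower than Hkh-2 in 6 of 9 genes and higher in 1, beside 23.5% and 16.3% of all genes, and 8 of the 9 genes had arrays that did not overlap between the lines, the exception being TNFAIP3, beside 48% of all genes. The 6 lower genes include the 4 subunits among the selected genes. The differences were -1.47 ± 0.230 for NFKB2 (limma, adjusted p = 0.000268), -1.02 ± 0.171 for RELB (adjusted p = 0.000444), -0.55 ± 0.089 for NFKB1 (adjusted p = 0.000350) and -0.46 ± 0.147 for RELA (adjusted p = 0.0239). Of these, RELA was the least secure: it did not pass without Hke3 replicate 1, Hke3 replicate 2, Hkh-2 replicate 1 or Hkh-2 replicate 2, with adjusted p between 0.0537 and 0.0973. The inhibitor genes NFKBIZ (-0.79 ± 0.178, adjusted p = 0.00354) and NFKBIE (-0.66 ± 0.089, adjusted p = 8.79e-05) were lower as well. The other tested probe set of NFKBIZ gave 0.01 between the lines and was not called. CFLAR was the single gene that was higher in Hke3, by 0.39 ± 0.097 (adjusted p = 0.00688). This call rests on 1 of its 10 tested probe sets. The other 9 were not called, and the differences of the 10 ran from -0.10 to 0.39. TNFAIP3 differed by 0.16 (95% interval -0.11 to 0.44, adjusted p = 0.338), and NFKBIA by -0.32 (95% interval -0.62 to -0.01, adjusted p = 0.0905), which passed without Hke3 replicate 3 (-0.42, adjusted p = 0.0323). Without both arrays that stood apart, 7 genes were lower and 1 higher, beside 34.2% and 23% of all genes.

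No effect of doxycycline on these genes was detected. None of the 9 genes was called between doxycycline and vehicle control cells (background 0% of 12852 genes), the differences lay between -0.25 (NFKB2) and 0.01 (TNFAIP3), and the adjusted p from limma was 0.999897 for each. At an unadjusted p under 0.05, 127 genes (0.988%) but none of the 9 passed. That share is smaller than this threshold would give with no effect at all. The fit was thus conservative for this comparison, and the lack of calls carries less weight. The widest interval was that of NFKB2, -0.75 to 0.25, followed by NFKBIZ, -0.42 to 0.35, so differences of that size cannot be told from 0 with 3 arrays a group. Set against the lines, the doxycycline arrays gave 2 higher and 3 lower genes against Hke3 (23.3% and 21.9% of all genes) and 0 higher and 7 lower against Hkh-2 (15.1% and 21.7%), the seventh being RELB (-0.54 ± 0.171, adjusted p = 0.0252), which did not pass without doxycycline replicate 1 (-0.48, adjusted p = 0.0907), doxycycline replicate 3 (-0.54, adjusted p = 0.0576) or Hkh-2 replicate 2 (-0.41, adjusted p = 0.113). RELB was also called higher against Hke3 (0.49 ± 0.171, adjusted p = 0.0339), which was lost without doxycycline replicate 2 or 3 or Hke3 replicate 1 or 2, with adjusted p between 0.0760 and 0.152, and NFKBIA against Hkh-2 (-0.52 ± 0.141, adjusted p = 0.0116) was lost without doxycycline replicate 1 or Hkh-2 replicate 2 (adjusted p = 0.0590 and 0.0578). Without Hke3 replicate 3, NFKB2 was called higher against Hke3 (0.51, adjusted p = 0.0134). RELA gave -0.37 against Hkh-2 (adjusted p = 0.0663), which passed without vehicle replicate 2 (adjusted p = 0.00632) and without both arrays that stood apart (adjusted p = 0.00108), although its size stayed at -0.37.

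The 28 probe sets did not all behave alike. Of these, 22 reached a mean of 6 in at least 1 group and were tested in a second fit over 27344 probe sets. Against Hke3, 2 were higher and 12 lower in vehicle cells (23.4% and 21.4% of all probe sets), and against Hkh-2 none was higher and 13 were lower (17% and 18.6%). CFLAR alone contributed 10 of the 22. Of these 10, 9 were lower in vehicle cells than in Hke3 and 7 than in Hkh-2, between -0.40 and -1.24 in the first comparison among the 9. The tenth, 237367_x_at, was flat at -0.06 and 0.08. Probe sets of 1 gene overlap in the transcripts they read and are not independent, and the suffix _x_at marks probes that may match other transcripts.

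The probe sets of a gene also disagreed in size. Those of CFLAR that were tested ranged over -1.24 to -0.06 against Hke3. The second NFKBIZ probe set, 223217_s_at, gave -0.21 against Hke3 and -0.20 against Hkh-2 (adjusted p = 0.192 and 0.253), where 223218_s_at gave -0.74 and -1.53. For TNFAIP3, 202643_s_at was lower than in Hke3 (-0.64, adjusted p = 0.00519) and gave -0.37 against Hkh-2 (adjusted p = 0.0821), with the means of both HCT116 groups just under 6. The second NFKB2 probe set, 209636_at, gave 0.36 and -0.79 and so had the same signs as the first, and the second RELA probe set, 209878_s_at, passed in neither comparison. One probe set each of NFKB2 and NFKBIA and 4 of CFLAR lay under 6 in every group and were not tested.

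**Figure D3:**
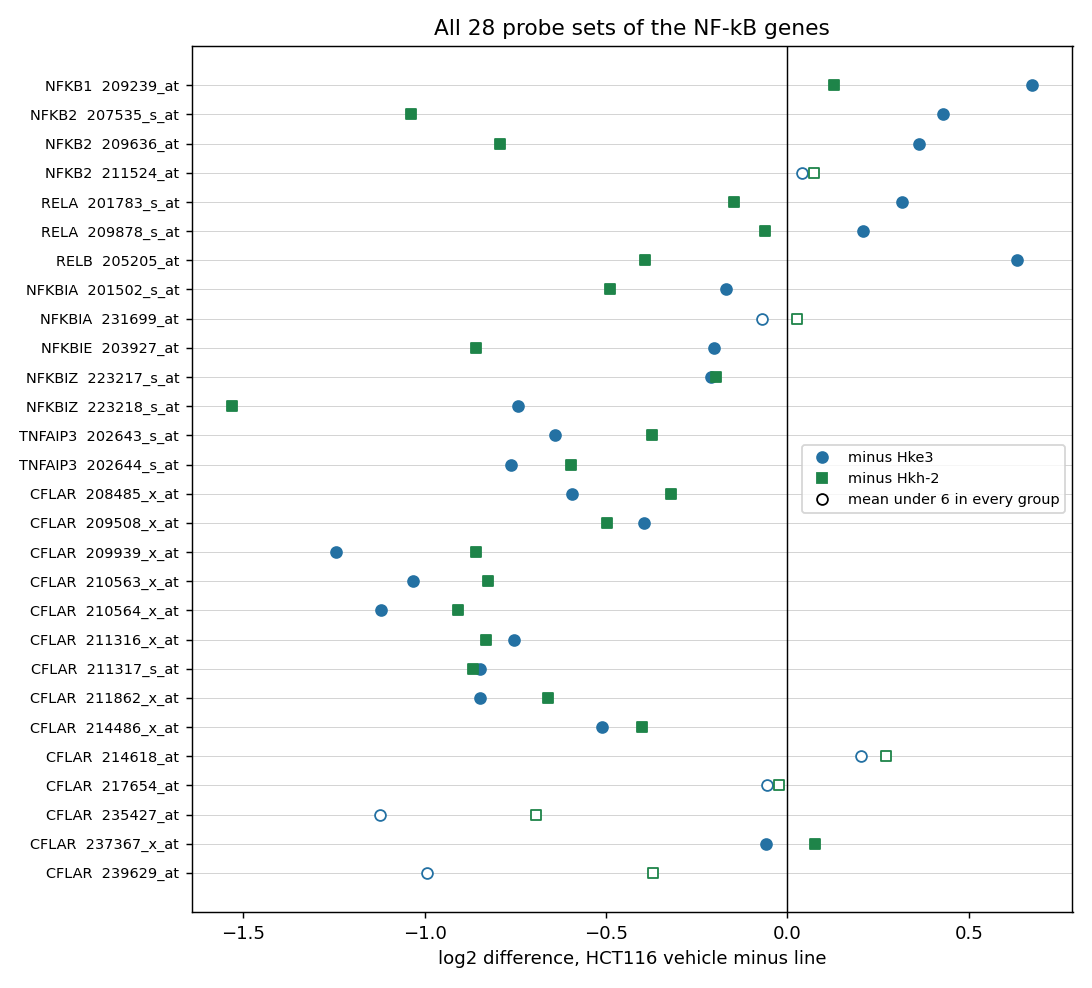
Log2 difference, HCT116 vehicle minus Hke3 (circles) and minus Hkh-2 (squares), for each of the 28 probe sets (rows), open where the mean is under 6 in every group. The CFLAR probe sets from 208485_x_at to 214486_x_at lie to the left of 0 in both comparisons, and 237367_x_at lies at 0.

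Around these genes, 93 other pathway genes in 5 lists were counted. In the IKK complex and its upstream kinases, 13 of 16 genes were tested. Of these 13, 5 were lower and 1 was higher in vehicle cells than in Hke3, 7 were lower than in Hkh-2, and 4 were lower than in both lines. The shares of all genes are 23.2% lower and 24.6% higher against Hke3, 21.7% lower and 14.3% higher against Hkh-2, and 12.6% lower and 9.04% higher than in both, and apply to every list here. IKBKB, a catalytic kinase of the complex, was lower by 1.11 against each line (adjusted p = 1.99e-06 and 2.26e-06). CHUK, another catalytic kinase of the complex and added after its values were seen, gave -0.03 against Hke3 and -0.27 against Hkh-2 (limma, adjusted p = 0.747 and 0.00705). TAB3, an adaptor of the kinase TAK1, was lower by 1.12 and 0.78, and IKBKG, the regulatory subunit NEMO, by 0.41 and 0.42, although the probes may also read a near-identical pseudogene of IKBKG. The gene of NIK, MAP3K14, singled out after its values were seen, was lower than in Hkh-2 by 1.58 (adjusted p = 2.13e-06), where NFKB2 was lower as well, and gave -0.23 against Hke3 (adjusted p = 0.207). A link between the levels of MAP3K14 and NFKB2 was not tested.

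Of 14 receptor and adaptor genes tested, 5 were lower than in Hke3, 8 than in Hkh-2, 5 than in both, and none was higher than either, where 23.2%, 21.7% and 12.6% of all genes were lower. TLR3, a receptor for double-stranded RNA, was near background in vehicle cells (4.77) and lower by at least 1.72 against Hke3 and 2.31 against Hkh-2. TNFRSF12A, the receptor of TWEAK, was lower by 0.63 and 0.65, and TNFRSF11A, the receptor RANK, by 1.07 and 0.49. Of 17 genes for ubiquitin enzymes and other brakes, 5 were lower than in both lines and 2 were higher, beside 12.6% and 9.04% of all genes. TAX1BP1 and TNIP1, adaptors that help the TNFAIP3 enzyme, were lower by 0.71 and 1.41 and by 0.69 and 0.88, whereas ITCH, a ubiquitin ligase that works with that enzyme, was higher by 0.46 and 0.74. BIRC2, the closest relative of BIRC3 and chosen after its values were seen, was lower by 1.14 against Hke3 and gave -0.26 against Hkh-2 (adjusted p = 1.12e-05 and 0.140).

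The other targets of NF-kB differed between the lines. Of 28 with a probe set, 16 reached a mean of 6 in at least 1 group and were tested. Of these 16, 9 were lower and none higher in vehicle cells than in Hke3, with a median of -0.33. Of all genes, 23.2% were lower and 24.6% higher, with a median of 0.04. Against Hkh-2, 4 were lower and 1 higher, with a median of -0.08, which is close to the 21.7% and 14.3% of all genes and their median of -0.02. Between the lines, 9 of the 16 were higher in Hke3 and 3 lower, beside 16.3% and 23.5% of all genes. CCL2 and CXCL8 are among the 9 in both comparisons with Hke3. Of vehicle cells, Hke3 and Hkh-2, these genes reached a mean of 6 in Hke3 alone. Their calls thus follow from the filter and lend the counts no support. LCN2, an iron-scavenging defence protein, was lower in vehicle cells by 2.33 and 2.02 (adjusted p = 1.25e-07 and 5.13e-07), and GADD45B, a stress-response gene, by 1.10 and 0.47. CXCL8, a neutrophil chemokine, was near background in vehicle cells and in Hkh-2 (3.90 and 4.77) and lower by at least 1.02 against Hke3, so no size can be given against Hkh-2. The chemokine gene CCL2, chosen after its values were seen, had a mean of 4.56 in vehicle cells, 8.74 in Hke3 and 4.54 in Hkh-2. Of the 6 other Rel and IkB genes tested, 2 were called against 1 line and are named for that, after their values were seen. NFKBID was higher in vehicle cells than in Hke3 (0.54, adjusted p = 0.00220) and REL was lower than in Hkh-2 (-0.64, adjusted p = 0.000260). None of the 66 genes tested in the 5 lists was called between doxycycline and vehicle cells.

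**Figure D4:**
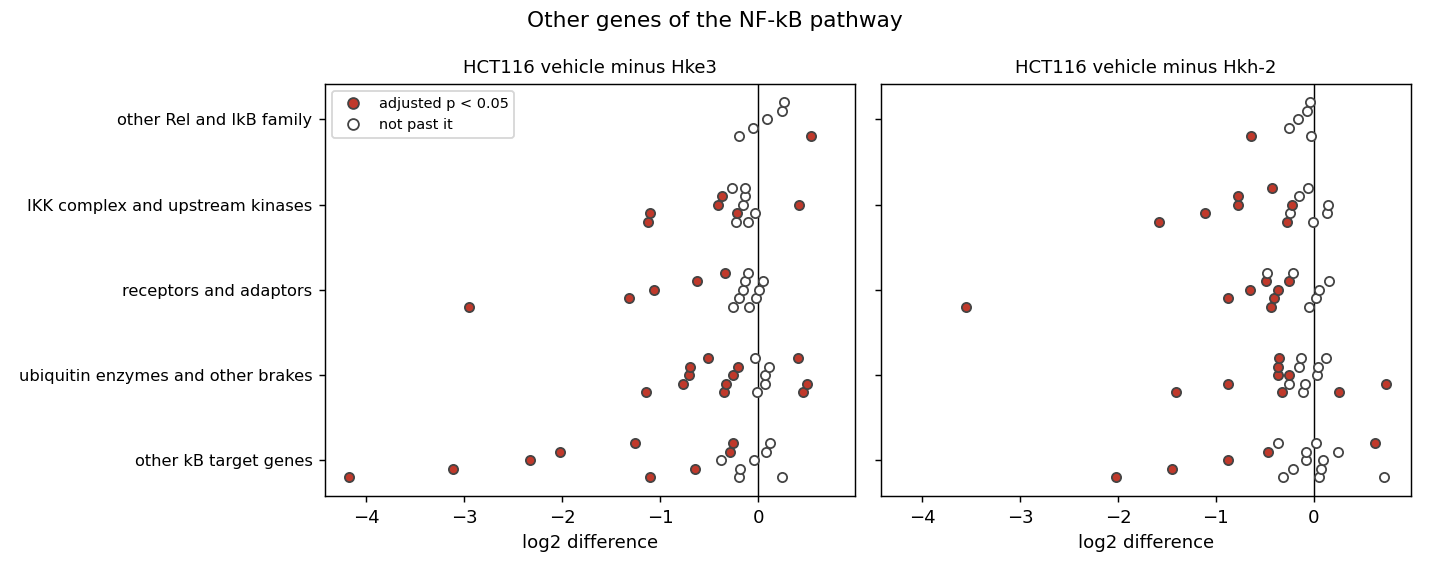
Log2 difference (x axis) of each tested gene (point) of the 5 pathway lists (rows) in HCT116 vehicle minus Hke3 and minus Hkh-2, filled where the adjusted p from limma is under 0.05. Receptors and adaptors have no filled point to the right of 0 in either panel, and the other kB target genes have 9 filled points to the left against Hke3 and 4 against Hkh-2.

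The order of the group means sets the 9 genes apart into patterns. NFKBIZ and NFKBIE stepped up to Hkh-2, the HCT116 groups being lowest and Hke3 between, although the step between vehicle cells and Hke3 did not pass for NFKBIE. NFKBIA had the same order, with no step between neighbours that passed. For NFKBIZ, the step from Hke3 to Hkh-2 was called in 1 of its 2 tested probe sets. The other probe set had means of 6.37 in Hke3 and 6.36 in Hkh-2. TNFAIP3 and CFLAR had their highest mean in Hke3, which differed from Hkh-2 for CFLAR, in 1 of its 10 tested probe sets, and not for TNFAIP3. NFKB1, NFKB2, RELA and RELB had their lowest mean in Hke3. For 3 members with the widest range of group means, the genes with the most similar profile over the 12 arrays were found by the root mean square difference of mean-centred log2 values. These were CARINH (0.166), PSG6 (0.171) and MIR31HG (0.178) for NFKBIZ, whose means ranged over 1.57; SPINT1 (0.143), BOK (0.153) and ARRDC1 (0.155) for NFKB2, whose means ranged over 1.47; and RGS20 (0.0937), TGOLN2 (0.0990) and BMAL2 (0.1001) for CFLAR, whose means ranged over 1.24. With 12 arrays in 4 groups, a small distance describes a like order of groups and no more, and PSG6 belongs to a family of near-identical genes whose probes may cross-react.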

How the data were processed

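RNA was measured on 12 Affymetrix arrays in 4 groups of 3, with conditions and replicate numbers taken from the sample labels. The deposited values are log2 intensities summarised by probe set; the submitters' processing notes name RMA, and its version, the chip definition and which arrays were normalized together are not given in the sources used here. Gene symbols came from the platform annotation, and 41043 of 41097 with a single gene were matched by gene ID to RefSeq (GRCh38.p14). Probe sets with several genes (1801) or no name (11777) gave no gene value. Genes with a group mean of at least 6 were kept (12852 of 19775), and 4 group means were fitted over all 12 arrays in limma (version 3.58.1, under R 4.3.3), with eBayes and Benjamini-Hochberg adjustment. A mean under 6 counts as near background, and a difference from it as at least the difference from 6. The fit was tested on simulated data. Precision is limited by the number of arrays, since 3 against 3 allow no two-sided exact p under 0.1.

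All members are named. From each pathway list, up to 3 genes called with the same sign against both lines were named, by the largest change nearer 0, besides genes said to be chosen after their values were seen. The members and lists were chosen with earlier results of these data known. Same-numbered vehicle and doxycycline arrays deviated together (r = 0.228, 0.212 and 0.453 across genes). Same-numbered doxycycline and Hkh-2 arrays did so weakly (r = 0.076, 0.134 and 0.104). The other pairs of groups gave mixed or negative values. These were 0.355, -0.578 and -0.580 for vehicle with Hke3, and -0.046, 0.422 and 0.337 for vehicle with Hkh-2. Doxycycline with Hke3 gave -0.094, -0.111 and -0.242, and Hke3 with Hkh-2 gave 0.103, -0.225 and -0.310. The main fit used no pairing, and the replicate number entered as a block only as an alternative. Alternatives covered the summary of probe sets, filters, normalizations, the fit, the replicate block, the control arrays and each array left out. The targeted gene itself is not reported here. Arrays of an inducible knockdown were not analysed here.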

Additional observations from a re-analysis of the deposited data

Results flagged for a closer look

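For 7 of the 9 NF-kB genes the difference from HCT116 differed between Hke3 and Hkh-2, tested as Hke3 minus Hkh-2 in limma with an adjusted p under 0.05. The difference was -1.47 for NFKB2, -1.02 for RELB, -0.79 for NFKBIZ, -0.66 for NFKBIE, -0.55 for NFKB1, -0.46 for RELA and 0.39 for CFLAR. Of all genes, 16.3% were called higher and 23.5% lower in this comparison. For CFLAR, NFKBIZ and RELA, the other tested probe sets of the gene were not called in it.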

How the results depend on the processing

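Over all alternatives, 1259 values of the 9 genes were counted as unchanged, 19 lost and 24 gained a call, and no called value turned its direction. The unchanged values include those with group means under 6 counted as 6, which have no adjusted p and were judged by size alone. The others counted as unchanged kept their side of the threshold. With no probe sets ending in _x_at or _s_at, only NFKB1, NFKB2, RELB and NFKBIE were left to test. Every tested probe set of CFLAR, NFKBIZ, TNFAIP3, RELA and NFKBIA has such an ending, so this setting cannot check those genes. Among the genes left, 0 were lower against Hke3, 2 against Hkh-2 and 0 against both lines, and 0 were higher in Hke3 than in Hkh-2. For the doxycycline arrays 0 were lower against Hke3 and 3 against Hkh-2. With the mean of all probe sets, 0 genes were higher in Hke3 than in Hkh-2, CFLAR giving 0.18 (limma, adjusted p = 0.0778), NFKBIA giving -0.23 against Hkh-2 (adjusted p = 0.0716) and RELA giving -0.37 between the lines (adjusted p = 0.0521). With no filter on low values, 2 probe sets instead of 1 were higher in Hke3 than in Hkh-2. The symmetrical form of the consensus was found in 1 gene instead of 7. NFKBIE passed against Hke3 with array medians subtracted (-0.24, adjusted p = 0.0443), with cyclic loess (adjusted p = 0.0336) and with the HCT116 arrays pooled (adjusted p = 0.0277). With single arrays left out, the genes higher against Hke3 numbered 2 to 4 for vehicle, the 4 being without Hke3 replicate 3, and 1 to 3 for doxycycline, RELB being lost at 1 and NFKB2 gained at 3, without Hke3 replicate 3. Without both arrays that stood apart, 3 genes were higher and 3 lower against Hke3 and 8 lower against Hkh-2, where 29.7%, 24.7% and 28.4% of genes were called. The replicate block gave 2 higher and 3 lower genes against Hke3 and 6 lower against Hkh-2, and 0 were called for doxycycline, as also in a block fit of the HCT116 arrays alone, chosen after seeing the data, so the block changed no call. Values near 6, such as NFKBIZ in HCT116, are limited by background.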
